A study of Homo sapiens with 34 samples.

Results

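The ligands BMP2, BMP4, BMP5, BMP7 and BMP10, the secreted antagonist NOG, the pseudoreceptor BAMBI and the targets ID1, ID2 and ID3 are 10 genes of the BMP pathway, picked by name from the 23189 genes of the count table. All 10 were found, and for each the RefSeq row with the largest total was taken. Bone morphogenetic proteins (BMPs) are secreted ligands of the TGFβ family that bind pairs of type I and type II serine/threonine kinase receptors and signal through SMAD1, SMAD5 and SMAD9, which enter the nucleus together with SMAD4. The ID genes, which encode helix-loop-helix proteins that hold back basic helix-loop-helix factors, are direct targets of this signal. BMP signaling takes part in the formation of mesoderm and in the induction of the heart field, and BMP10 is a ligand of the trabecular myocardium.

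RNA was sequenced from H1 cells, an established human ESC line, infected with a lentivirus for an shRNA that targets NKX2-5, ZEB2 or ZNF503, with 1 vector used per gene. WT cells are H1 cells with the control vectors, either empty or with a GFP shRNA. All lines passed puromycin selection and went through the same cardiac differentiation, with the GSK3β inhibitor CHIR99021 in the opening 24 hours, the WNT inhibitor IWP2 from day 2 to day 5 and insulin from day 7. Cells were taken at days 0, 2, 6 and 10, and 30 of 34 libraries in 15 groups were used, 2 in each group. The WT and ZEB2 shRNA groups at day 10 are replicates 3 and 4, because the rows of replicates 1 and 2 do not follow the accessions of the table. Day 10 of ZNF503 shRNA cells was not analysed here. The study calls its libraries biological replicates but does not say whether those of a group came from separate cultures, so the p-values measure the spread between these libraries, which may be technical.

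Totals over genes ranged from 9189943 to 90814577 counts. Levels are given as CPM, counts scaled to the normalized total of the library, with mean ± SD and n = 2. Where a gene had no count the limit is 3 counts, or 0.033 to 0.0774 CPM in the day 0 libraries and 0.102 to 0.326 CPM in those of day 10, and such limits cover counting error only. Libraries of NKX2-5 shRNA cells at day 10 differed most between replicates, so their values are given with and without each library. NKX2-5 was at 0.995 and 0.761 CPM in NKX2-5 shRNA cells at day 6 and at 84.3 and 50.3 CPM in WT cells (log2 fold change -6.30 ± 0.30, adjusted p = 9.60e-09). ZNF503 was at 0.613 and 0.65 CPM in its shRNA cells and 8.73 and 9.31 CPM in WT cells at day 6 (-3.84 ± 0.29, adjusted p = 6.25e-07). At day 2 it was at 0.991 and 1.76 CPM in its shRNA cells and 1.1 and 1.98 CPM in WT cells, a difference that did not pass (-0.23 ± 0.40, adjusted p = 0.71). ZEB2 was at 54.4 and 57.3 CPM in ZEB2 shRNA cells and 97 and 93.9 CPM in WT cells at day 6 (-0.77 ± 0.12, adjusted p = 0.0014), and its differences at day 2 (-0.63 ± 0.17, adjusted p = 0.18) and day 10 (-1.02 ± 0.34, adjusted p = 0.079) did not pass. At day 6 the lines also had less of other targeted genes, with ZEB2 at -2.22 ± 0.13 and ZNF503 at -3.55 ± 0.27 in NKX2-5 shRNA cells, ZEB2 at -3.01 ± 0.14 and NKX2-5 at -4.78 ± 0.28 in the ZNF503 shRNA line, and NKX2-5 at -0.89 ± 0.22 in the ZEB2 shRNA line, all past 5% FDR. At day 2 ZEB2 was lower in NKX2-5 (-2.03 ± 0.19, adjusted p = 9.39e-06) and ZNF503 shRNA cells (-0.64 ± 0.18, adjusted p = 0.015). NKX2-5 was also lower in ZEB2 shRNA cells at day 10, at 30.5 against 139 CPM (-2.18 ± 0.56, adjusted p = 0.036). ZNF503 in ZEB2 shRNA cells (1.69 ± 0.57, adjusted p = 0.080) did not pass at day 10, nor did ZEB2 and ZNF503 in NKX2-5 shRNA cells. At day 0 all 3 targeted genes were below 0.5 CPM in every library. At day 2 NKX2-5 was at 0.105 and 0 CPM in its shRNA cells and 0.194 and 0.247 CPM in WT cells, and was not tested.

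The 10 genes lie on 7 chromosomes (GRCh37). BMP2 (6748333 to 6760893), BMP7 (55743809 to 55841697) and ID1 (30193086 to 30194318) are on chromosome 20. BMP10 (69088041 to 69098529) and ID2 (8818975 to 8824591) are on chromosome 2. The others are BMP4 (chromosome 14, 54416454 to 54425479), BMP5 (chromosome 6, 55618451 to 55740388), ID3 (chromosome 1, 23884417 to 23885992), NOG (chromosome 17, 54671060 to 54672972) and BAMBI (chromosome 10, 28966439 to 28971861). BMP4 has 3 RefSeq rows and ID1 has 2, and the rows of a gene overlap, so that their counts are not independent.

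The 250 bases before the start of 3 members are shown, of BAMBI and BMP4, the members with a GGCGCC there, and of ID1, a direct target without one in these 250 bases. They are RefSeq sequences in GRCh38.p14, 5′ to 3′, with every GGCGCC, a palindrome that SMAD1 and SMAD5 are known to bind, in capitals. They lie at chr10:28677271-28677520 (BAMBI, + strand), chr14:53955051-53955300 (BMP4, - strand, the most upstream of 3 starts) and chr20:31605039-31605288 (ID1, + strand).
BAMBI: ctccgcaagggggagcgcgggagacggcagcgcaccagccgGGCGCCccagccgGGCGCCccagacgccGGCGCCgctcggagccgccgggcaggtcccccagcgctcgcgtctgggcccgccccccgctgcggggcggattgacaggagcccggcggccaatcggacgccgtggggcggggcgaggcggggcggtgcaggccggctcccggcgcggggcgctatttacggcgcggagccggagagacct
BMP4: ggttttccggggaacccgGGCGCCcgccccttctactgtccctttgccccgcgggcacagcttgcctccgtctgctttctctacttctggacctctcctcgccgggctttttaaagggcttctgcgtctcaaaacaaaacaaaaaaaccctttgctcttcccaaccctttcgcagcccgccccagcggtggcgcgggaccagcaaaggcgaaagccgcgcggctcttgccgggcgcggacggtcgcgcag
ID1: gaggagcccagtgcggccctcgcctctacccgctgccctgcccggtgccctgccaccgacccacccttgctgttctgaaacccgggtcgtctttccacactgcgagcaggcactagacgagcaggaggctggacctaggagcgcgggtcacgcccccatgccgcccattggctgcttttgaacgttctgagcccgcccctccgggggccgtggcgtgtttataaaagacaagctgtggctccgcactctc
GGCGCC occurred 3 times before BAMBI and 1 time before this start of BMP4, and 16.4% of 35116 such windows held it. The G and C content of these windows was 81.2% for BAMBI, 63.6% for BMP4 and 66.0% for ID1. Of the 10 genes, 7 had a window, with 9 windows in all, and no other member window held GGCGCC. Bases further from the starts were not searched. The E-box CACCTG, a form that ZEB2 is known to bind, searched on both strands, was in 17.5% of all windows and in 0 of these 9 windows.

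In WT cells all 10 genes rose between day 2 and day 6, and 7 of them fell again by day 10. All 10 passed 5% FDR upward, against 25.9% of all genes tested (49.8% in either direction), and 6 passed the stricter thresholds of the study, against 8.35%. BMP5, a ligand of the BMP5/6/7 group, was at 0.194 and 0.247 CPM at day 2, at 457 and 375 CPM at day 6 and at 768 and 857 CPM at day 10. It rose by a log2 fold change of 10.90 ± 0.37 to day 6, where the day 2 level rests on 6 and 4 counts, and by a further 0.98 ± 0.19, adjusted p = 0.0017 to day 10. BAMBI, which resembles a type I receptor without a kinase, went from 27.9 and 24.6 CPM to 604 and 515 CPM (4.40 ± 0.13, adjusted p = 3.96e-09). BMP10 had no count in either WT library at day 0 or day 2 and reached 7.9 and 4.2 CPM at day 6, at least 32.7-fold higher than the level that 3 counts per library allow. NOG, which binds BMP ligands and keeps them from their receptors, held 3 counts over both WT libraries at day 2 and 580 at day 6, a ratio of 141 with a 95% interval of 48.0 to 686. The day 2 libraries held 2 and 1 counts, each under the limit of 3, so this ratio rests on pooled reads near 0. Such intervals pool the reads of both libraries and cover counting error only. BMP2 and BMP4, which are close relatives among the ligands, also rose between day 0 and day 2. BMP2 was at 1.78 and 2.71 CPM at day 0, 23.5 and 24.3 CPM at day 2 and 274 and 232 CPM at day 6 (3.44 ± 0.19 and then 3.40 ± 0.17). BMP4 went from 5.14 and 4.97 CPM at day 0 to 10.8 and 8.89 CPM at day 2 and 101 and 104 CPM at day 6 (1.00 ± 0.14 and then 3.36 ± 0.14).

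From day 0 to day 2 of WT cells 4 of 10 genes passed 5% FDR, against 44.1% of all genes. BMP2, BMP4 and ID3 (1.54 ± 0.16, adjusted p = 4.77e-05) rose, and NOG fell from 47 to 3 counts, a ratio of 9.71 with a 95% interval of 3.12 to 48.8. These NOG counts are pooled, and each day 2 library held under 3. ID1 and ID2 did not pass, with means of 76.7 ± 3.2 and 64 ± 2.65 CPM for ID1 and of 72.7 ± 0.0819 and 79.3 ± 4.7 CPM for ID2. Between day 6 and day 10 the pattern split, and 7 genes fell while 2 rose, against 29.2% of all genes lower and 57.5% in either direction. ID1 fell furthest, from 188 and 168 CPM to 43.7 and 40.0 CPM (-2.07 ± 0.11, adjusted p = 9.23e-07). The log2 fold change of BMP4 was -1.45 ± 0.12, that of BMP2 -1.19 ± 0.15, that of ID2 -0.99 ± 0.10, that of ID3 -0.83 ± 0.16 and that of BAMBI -0.64 ± 0.11. BMP5 and BMP7 (0.53 ± 0.17, adjusted p = 0.023) rose, and NOG was at 9.02 ± 0.264 and 7.19 ± 0.925 CPM. The calls of BMP7 and BMP10 (-1.24 ± 0.44, adjusted p = 0.04) depended on single libraries. BMP7 did not pass without WT day 6 replicate 2 (adjusted p = 0.18) or day 10 replicate 4, and BMP10 not without WT day 6 replicate 1 (0.26) or day 10 replicate 4.

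**Figure D1:**
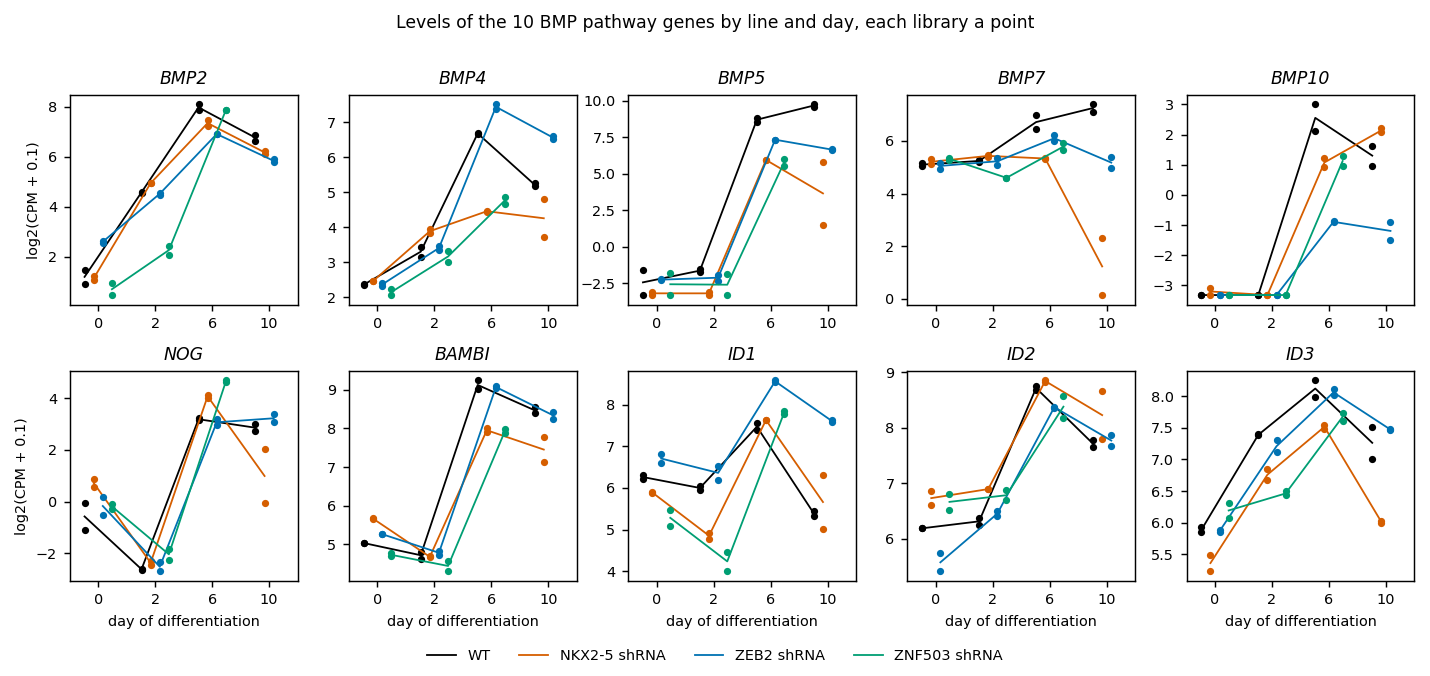
Levels of the 10 genes as log2(CPM + 0.1) by day, with the days evenly spaced, 1 point per library and a line through the group means of the log values. In WT cells every gene is higher at day 6 than at day 2, and BMP5 goes on from 416 to 812 CPM at day 10 while ID1 falls from 178 to 41.8 CPM.

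At day 6 NKX2-5 shRNA cells had lower levels of all 5 ligands and of BAMBI and ID3, and a higher level of NOG, than WT cells. Of 10 genes 8 passed 5% FDR, 7 of them lower, against 24.7% of all genes lower and 49.1% in either direction. No member passed the 8-fold and 1% FDR thresholds of the study, which 4.71% of all genes passed. BMP4 was at 21.7 and 22.1 CPM in the shRNA libraries and at 101 and 104 CPM in the WT libraries (-2.23 ± 0.12, adjusted p = 2.34e-08). BMP5 was at 62.2 and 60.0 CPM against 457 and 375 CPM (-2.78 ± 0.16, adjusted p = 3.88e-08). BMP7 was at 39.5 and 40.8 CPM against 127 and 86.5 CPM (-1.42 ± 0.17, adjusted p = 2.74e-05). These 3 ligands lay well below every WT library. BMP10 was at 1.81 and 2.22 CPM against 7.9 and 4.2 CPM (-1.57 ± 0.34, adjusted p = 0.0021), and BMP2 at 150.3 and 177 CPM against 274 and 232 CPM (-0.64 ± 0.12, adjusted p = 0.00078). BAMBI was at 239 and 256 CPM against 604 and 515 CPM (-1.18 ± 0.11, adjusted p = 3.72e-06), and ID3 at 179.6 and 187 CPM against 305 and 255 CPM (-0.62 ± 0.11, adjusted p = 0.00073). NOG was higher, at 16.1 and 17.5 CPM against 9.21 and 8.83 CPM (0.89 ± 0.16, adjusted p = 0.00073). ID1 and ID2 did not pass, with means of 198 ± 1.68 and 459 ± 4.29 CPM in the shRNA cells against 178 ± 14.4 and 420.3 ± 13.8 CPM in WT cells. The libraries of the 2 groups overlapped for none of the 10 members, and 80.1% of all genes tested did not overlap either. All 8 calls held when any 1 of the 4 libraries was left out.

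ZNF503 shRNA cells at day 6 differed from WT cells in much the same members, with NOG higher and 4 ligands, BAMBI and ID3 lower. Of 10 genes 9 passed 5% FDR, 7 lower and 2 higher, against 28.5% of all genes lower and 55.7% in either direction. No member passed the 8-fold and 1% FDR thresholds, which 3.91% of all genes passed. BMP4 was at 29.2 and 25.4 CPM (-1.92 ± 0.12, adjusted p = 1.14e-07), BMP5 at 46.8 and 64.2 CPM (-2.91 ± 0.16, adjusted p = 3.95e-08), BMP7 at 60.7 and 49.9 CPM (-0.96 ± 0.17, adjusted p = 0.00056) and BMP10 at 2.35 and 1.83 CPM (-1.54 ± 0.35, adjusted p = 0.0028). BAMBI was at 236 and 253 CPM (-1.20 ± 0.11, adjusted p = 3.91e-06) and NOG, the highest of any group, at 25.7 and 24.4 CPM (1.46 ± 0.17, adjusted p = 1.66e-05). All of these libraries lay outside the range of the WT libraries, as did those of 77.7% of all genes tested. BMP2, at 233 and 234 CPM, did not pass and overlapped the WT libraries. The ID genes moved by small amounts, ID1 upward (0.33 ± 0.10, adjusted p = 0.017), ID2 downward (-0.33 ± 0.13, adjusted p = 0.042) and ID3 downward (-0.46 ± 0.11, adjusted p = 0.0047). ID1 did not pass without WT replicate 2 (adjusted p = 0.14). ID3 did not pass without WT replicate 1 (0.051). ID2 passed in only 1 of the 4 fits that left out a library, with adjusted p of 0.24 without ZNF503 shRNA replicate 1. NKX2-5 and ZNF503 shRNA cells share their WT libraries, so they were compared with each other directly, where 14.7% of all genes passed. In this comparison 3 members passed, with BMP2 (-0.51 ± 0.12, adjusted p = 0.015) and NOG (-0.57 ± 0.16, adjusted p = 0.034) lower and ID2 (0.45 ± 0.13, adjusted p = 0.035) higher in NKX2-5 shRNA cells. The count was 0 without NKX2-5 shRNA replicate 1 or ZNF503 shRNA replicate 1, 1 without NKX2-5 shRNA replicate 2 and 4 without ZNF503 shRNA replicate 2. For BMP5 the difference was 0.14 ± 0.15, for BMP10 -0.03 ± 0.36 and for BAMBI 0.02 ± 0.11 (log2 ± SE), none of which passed.

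ZEB2 shRNA cells at day 6 showed another pattern, with BMP4 and ID1 above WT cells and BMP2, BMP5, BMP7 and BMP10 below. Of 10 genes 6 passed 5% FDR, 2 higher and 4 lower, against 11% of all genes. BMP4 was at 182 and 165 CPM (0.77 ± 0.11, adjusted p = 0.00073) and ID1 at 373 and 384 CPM against 188 and 168 CPM in WT cells (1.09 ± 0.10, adjusted p = 3.13e-05). BMP10 was at 0.431 and 0.445 CPM, from 26 and 6 counts (-3.77 ± 0.42, adjusted p = 9.91e-05), and was the only member past the 8-fold threshold, which 0.462% of all genes passed. BMP5 was at 158 and 161 CPM (-1.37 ± 0.15, adjusted p = 8.15e-05) and BMP2 at 122 and 119 CPM (-1.07 ± 0.12, adjusted p = 0.00012). BMP7 was at 73.7 and 63.6 CPM (-0.63 ± 0.17, adjusted p = 0.034) and did not pass without WT replicate 1 (adjusted p = 0.36) or without either ZEB2 shRNA library. BAMBI, ID2, ID3 and NOG did not pass, with means of 537 ± 17.5, 331 ± 2.25, 267 ± 12.8 and 8.32 ± 0.905 CPM. The direct comparisons separated this line from the other lines. Against ZEB2 shRNA cells, all 10 members passed in NKX2-5 shRNA cells, where 44.4% of all genes did, and 8 of 10 passed between ZEB2 and ZNF503 shRNA cells, where 49.2% did. Of the 10 differences that of BMP4 was largest in both, with -3.00 ± 0.12, adjusted p = 3.55e-09 for NKX2-5 minus ZEB2 shRNA cells and 2.68 ± 0.12, adjusted p = 1.40e-08 for ZEB2 minus ZNF503 shRNA cells. BMP10 went the other way, with 2.20 ± 0.42, adjusted p = 0.0011 and -2.24 ± 0.44, adjusted p = 0.0012. Without single libraries 8 to 9 members passed against NKX2-5 shRNA cells, since ID2 (0.46 ± 0.13, adjusted p = 0.011) was lost whichever library was left out and BMP2 (0.43 ± 0.12, adjusted p = 0.011) with 3 of the 4 (up to 0.16, without NKX2-5 shRNA replicate 2). The median log2 fold change of the 10 members against WT cells at day 6 was -0.91 in NKX2-5 shRNA, -0.71 in ZNF503 shRNA and -0.23 in ZEB2 shRNA cells, beside -0.0016, -0.031 and 0.012 over all genes tested.

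Cell type markers differed between the same groups at day 6. The summed level of 6 cardiomyocyte markers (TNNT2, MYH6, MYL7, ACTN2, NPPA and TNNI3) was 7547 to 9338 CPM in WT, 4076 to 4451 CPM in ZEB2 shRNA, 148 to 197 CPM in ZNF503 shRNA and 35.5 to 44.5 CPM in NKX2-5 shRNA libraries, with 5, 6, 4 and 2 of the 6 above 1 CPM. The 6 markers of endoderm and liver (FOXA2, SOX17, AFP, TTR, APOA2 and ALB) summed to 324 to 657 CPM in WT, 300.3 to 428 CPM in ZEB2 shRNA, 2354 to 2483 CPM in ZNF503 shRNA and 3134 to 3226 CPM in NKX2-5 shRNA libraries. None of these 12 markers was at 0 in both libraries of a group at day 6. The 4 mesendoderm markers (TBXT, MIXL1, EOMES and GSC) summed to 171 to 186 CPM in ZEB2 shRNA libraries and to 12.5 to 13.5 CPM in WT libraries, with 2 of the 4 above 1 CPM in each group. Of the 4, 1 passed 5% FDR, against 11% of all genes. In these bulk samples fewer cells of a type and less RNA per cell cannot be told apart, and the part of these markers in the differences of the BMP genes was not tested.

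**Figure D2:**
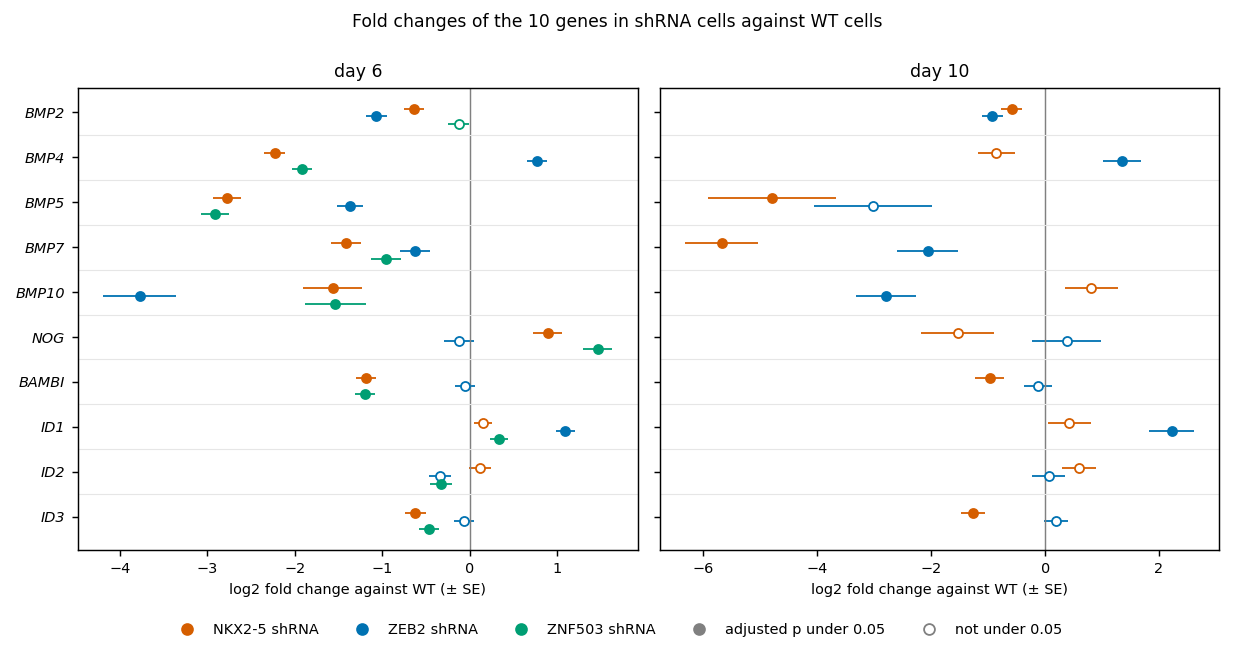
Log2 fold change ± SE of each gene in shRNA cells against WT cells at day 6 (left) and day 10 (right), where a filled point has an adjusted p under 0.05. At day 6 BMP4 is at -2.23 in NKX2-5 shRNA, -1.92 in ZNF503 shRNA and 0.77 in ZEB2 shRNA cells, and BMP10 is lowest in ZEB2 shRNA cells at -3.77.

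In NKX2-5 and ZNF503 shRNA cells the ID genes already differed from WT cells at day 2, before the rise of most ligands. NKX2-5 itself had 6 and 4 counts in the WT libraries of this day and 6 and 0 in those of its shRNA line. Whether it was lowered was not tested. In NKX2-5 shRNA cells 4 of 7 members tested passed 5% FDR, 2 in each direction, against 26.7% of all genes. No member passed the 4-fold and 10% FDR thresholds of the study, which 1.19% of all genes passed. ID1 was at 27.4 and 30.3 CPM against 62.1 and 65.8 CPM in WT cells (-1.17 ± 0.14, adjusted p = 7.99e-05) and ID3 at 102 and 115 CPM against 168 and 167 CPM (-0.65 ± 0.10, adjusted p = 0.00026). ID2 moved in the other direction, at 119 and 118 CPM against 82.7 and 76 CPM (0.56 ± 0.09, adjusted p = 0.00058). The groups overlapped for none of the 3 ID genes, and 64% of all genes tested were apart in this way. BMP4 was also higher (14.2 and 15.3 against 10.8 and 8.89 CPM, 0.55 ± 0.17, adjusted p = 0.027), a call held in only 1 of the 4 fits that left out a library, with adjusted p of 0.19 without WT replicate 2.

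In ZNF503 shRNA cells at day 2, 5 of 7 members passed, 1 higher and 4 lower, against 26.9% of all genes. ZNF503 itself did not pass at this day (-0.23 ± 0.40, adjusted p = 0.71). ID1 was at 22.1 and 15.9 CPM (-1.78 ± 0.15, adjusted p = 6.45e-07), ID3 at 90.0 and 86.2 CPM (-0.97 ± 0.10, adjusted p = 3.72e-06) and ID2 at 117 and 104 CPM (0.43 ± 0.09, adjusted p = 0.0027). BMP2 was at 4.14 and 5.37 CPM against 23.5 and 24.3 CPM in WT cells (-2.41 ± 0.16, adjusted p = 5.22e-08) and was the only member past the 4-fold threshold of the study, which 2.8% of all genes passed. BMP7 was lower (24 and 24.2 against 36.9 and 38.5 CPM, -0.69 ± 0.12, adjusted p = 0.00055). All 5 calls held when any 1 library was left out. The low BMP2 level did not last, since BMP2 rose in ZNF503 shRNA cells to 233 and 234 CPM at day 6, within the WT range. At day 2 the 4 mesendoderm markers summed to 372 to 476 CPM in ZNF503 shRNA and 780.2 to 825 CPM in WT libraries, and 4 pluripotency markers (POU5F1, NANOG, SOX2 and DPPA4) to 1508 to 1595 and 922 to 941 CPM, and none of the 8 was at 0. Their part in these differences was not tested. Between NKX2-5 and ZNF503 shRNA cells at day 2, 5 of 7 members passed, against 39.5% of all genes. ID1 (0.60 ± 0.15, adjusted p = 0.0045), ID3 (0.32 ± 0.10, adjusted p = 0.016) and BMP2 (2.75 ± 0.15, adjusted p = 8.33e-09) were lower in ZNF503 shRNA cells, and ID2 did not pass (0.13 ± 0.09, adjusted p = 0.29). The ID3 call was lost without 3 of the 4 libraries (adjusted p up to 0.16, without NKX2-5 shRNA replicate 2), and that of ID1 without ZNF503 shRNA replicate 2 (0.062), where 3 of 7 members passed.

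In ZEB2 shRNA cells at day 2 none of the 7 members passed in edgeR, where 0.49% of all genes did. At an unadjusted p under 0.05 there were 2, ID1 and ID3, and DESeq2 called 0. Means were 82.8 ± 13.5 CPM for ID1, 87.4 ± 4.34 CPM for ID2, 148 ± 14.3 CPM for ID3 and 22.9 ± 1.07 CPM for BMP2. ID1 was lower in NKX2-5 shRNA cells (-1.52 ± 0.14, adjusted p = 9.14e-06) and in ZNF503 shRNA cells (ZEB2 minus ZNF503, 2.12 ± 0.15, adjusted p = 8.90e-08) than in ZEB2 shRNA cells, 2 comparisons in which 5 of 7 members passed, against 23.2% and 29.3% of all genes. Between NKX2-5 and ZEB2 shRNA cells 3 members, ID1, ID2 and ID3, still passed whichever library was left out, and BMP2 and BMP4 were lost each time.

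At day 0, in cells not yet exposed to CHIR99021, the ID genes differed between lines as well. In NKX2-5 shRNA cells 3 of 8 members tested passed 5% FDR, against 15.9% of all genes. BAMBI was at 51.1 and 50.3 CPM against 32.9 and 32.4 CPM in WT cells (0.61 ± 0.10, adjusted p = 0.0023), ID2 at 116 and 97.1 CPM against 72.7 and 72.6 CPM (0.52 ± 0.13, adjusted p = 0.02) and ID3 at 37.4 and 44.8 CPM against 60.6 and 57.4 CPM (-0.54 ± 0.12, adjusted p = 0.0099). NOG (1.39 and 1.73 against 0.371 and 0.859 CPM, 1.32 ± 0.43, adjusted p = 0.057) passed only the thresholds of the study at this day, 2-fold and 10% FDR, which 4.03% of all genes passed. In ZNF503 shRNA cells 2 of 8 passed, against 7.53% of all genes, ID1 lower (44.3 and 34 against 79 and 74.5 CPM, -0.98 ± 0.13, adjusted p = 0.0017) and ID2 higher (91.2 and 112 CPM, 0.48 ± 0.13, adjusted p = 0.046). In ZEB2 shRNA cells 2 of 8 passed, against 3.93% of all genes. BMP2 was higher (5.78 and 6.17 against 1.78 and 2.71 CPM, 1.39 ± 0.26, adjusted p = 0.011), past the 2-fold threshold that 2.2% of all genes passed, and ID2 was lower (42.4 and 53 CPM, -0.63 ± 0.13, adjusted p = 0.021). BMP4 (4.10 to 5.45 CPM over the 8 libraries) and BMP7 (30.6 to 40.6 CPM) did not pass in any line. BMP5 and BMP10 did not pass the filter on low counts at day 0, nor did these 2 genes and NOG at day 2. The 4 pluripotency markers summed to 1981 to 2226 CPM over the 8 libraries of day 0, all 4 above 1 CPM in every group.

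The day 0 calls were less stable than those of day 6. BAMBI in NKX2-5 shRNA cells and ID1 in ZNF503 shRNA cells still passed whichever library was left out. ID2 in NKX2-5 shRNA cells passed in 1 of 4 such fits (adjusted p up to 0.13, without WT replicate 1), ID3 in 2 of 4 (up to 0.097, without WT replicate 1), ID2 in ZNF503 shRNA cells in 0 of 4 (up to 0.33, without ZNF503 shRNA replicate 2), and BMP2 (up to 0.14, without WT replicate 1) and ID2 (up to 0.15, without WT replicate 2) in ZEB2 shRNA cells in 1 of 4 each. Compared directly, 5 of 8 members passed between NKX2-5 and ZEB2 shRNA cells (31.2% of all genes), 3 of 8 between NKX2-5 and ZNF503 shRNA cells (25.8%) and 5 of 8 between ZEB2 and ZNF503 shRNA cells (25.5%). ID2 was higher in NKX2-5 than in ZEB2 shRNA cells (1.15 ± 0.13, adjusted p = 0.00013) and lower in ZEB2 than in ZNF503 shRNA cells (-1.11 ± 0.13, adjusted p = 0.00021). ID1 was lower in ZNF503 shRNA cells than in ZEB2 shRNA cells (1.40 ± 0.13, adjusted p = 3.60e-05) and than in NKX2-5 shRNA cells (0.59 ± 0.13, adjusted p = 0.0065), the latter not past the threshold without ZNF503 shRNA replicate 2 (0.084).

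**Figure D3:**
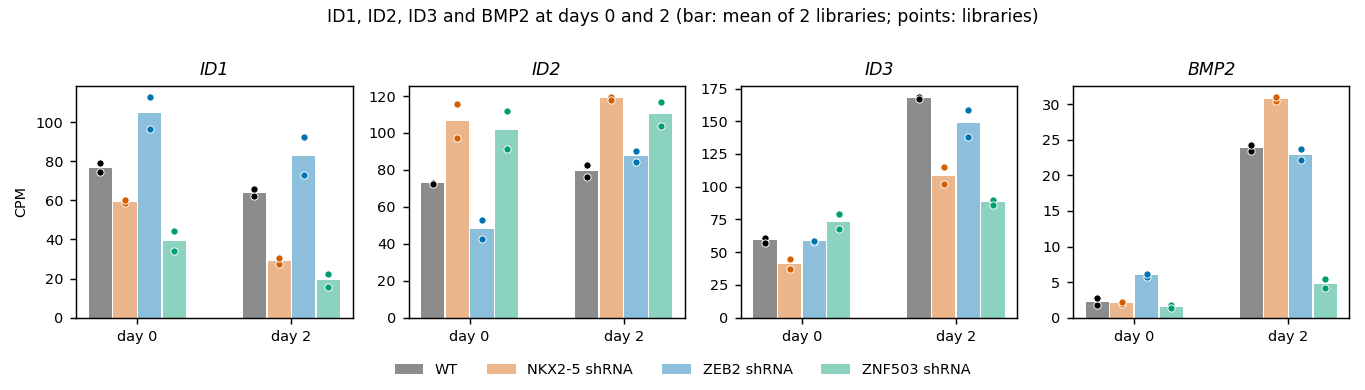
CPM of ID1, ID2, ID3 and BMP2 at days 0 and 2, with a bar for the mean of 2 libraries and a point for each library. ID1 is at 28.8 CPM in NKX2-5 shRNA and 19.0 CPM in ZNF503 shRNA cells at day 2 against 64.0 CPM in WT cells, and BMP2 is at 4.76 CPM in ZNF503 shRNA cells against 23.9 CPM.

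Within each shRNA line the rise from day 2 to day 6 was seen again, with exceptions. All 10 members rose in the ZEB2 shRNA line (48.7% of all genes passed in either direction) and the ZNF503 shRNA line (65.9%), and 8 of 10 in NKX2-5 shRNA cells (47.9%), where BMP4 (14.2 and 15.3 to 21.7 and 22.1 CPM, 0.55 ± 0.32, adjusted p = 0.19) and BMP7 (41.5 and 44.6 to 39.5 and 40.8 CPM, -0.12 ± 0.47, adjusted p = 0.85) did not pass. The rise of BMP4 was 4.02 ± 0.13 in the ZEB2 shRNA line and 1.57 ± 0.18 in the ZNF503 shRNA line. ID1 rose by 2.76 ± 0.36 in NKX2-5 shRNA, 3.52 ± 0.16 in ZNF503 shRNA and 2.17 ± 0.12 in ZEB2 shRNA cells, from different day 2 levels. BMP10, with no count at day 2 in any of these lines, was at least 16.2-fold higher at day 6 in NKX2-5 shRNA, 15.4-fold in ZNF503 shRNA and 5.32-fold in ZEB2 shRNA cells than 3 counts per library allow. BMP5 went from 1 count to 4683 in NKX2-5 shRNA cells. No ratio is given, since 1 count over both libraries lies under the limit of 3 counts. From day 0 to day 2, 5 members passed in the NKX2-5 shRNA line (28.3% of all genes), 7 in the ZEB2 shRNA line (56.9%) and 5 in the ZNF503 shRNA line (31.6%), with BMP2 higher in every line. Leaving out any 1 library took the NKX2-5 shRNA count to 2 or 3. ID3 rose by 1.47 ± 0.14 in NKX2-5 and 1.31 ± 0.10 in ZEB2 shRNA cells and did not pass in ZNF503 shRNA cells (0.30 ± 0.11, adjusted p = 0.056). Between day 6 and day 10, 8 members passed in ZEB2 shRNA cells, all lower (63.3% of all genes in either direction), among them BMP5 (-0.70 ± 0.11, adjusted p = 6.96e-05) and BMP7 (-0.93 ± 0.16, adjusted p = 0.0002), the 2 ligands that rose in WT cells. In NKX2-5 shRNA cells 5 passed, all lower (49.1%), with BMP7 at -3.82 ± 0.55, adjusted p = 0.0011. Whether these time courses differ between lines was not tested in an interaction term.

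At day 10 ZEB2 shRNA cells still had more ID1 and BMP4 and less of 3 ligands than WT cells. Of 10 members 5 passed 5% FDR, 2 higher and 3 lower, against 18.2% of all genes. No member passed the 8-fold and 1% FDR thresholds, which 1.46% of all genes passed. ID1 was at 198 and 192 CPM against 43.7 and 40.0 CPM in WT cells (2.22 ± 0.39, adjusted p = 0.011), and BMP4 at 90.8 and 98.2 CPM against 36 and 38.1 CPM (1.35 ± 0.33, adjusted p = 0.031). BMP2 was at 54.9 and 59.6 CPM against 118 and 99.9 CPM (-0.93 ± 0.18, adjusted p = 0.016), BMP7 at 42.1 and 30.9 CPM against 138 and 167 CPM (-2.06 ± 0.53, adjusted p = 0.037) and BMP10 at 0.434 and 0.257 CPM, from 14 and 6 counts, against 3.01 and 1.85 CPM (-2.79 ± 0.53, adjusted p = 0.013). BMP5 was at 97.6 and 102 CPM against 768 and 857 CPM, with groups far apart, but did not pass in the fit that shares its spread with NKX2-5 shRNA cells (-3.03 ± 1.03, adjusted p = 0.083). It passed in 3 of 8 alternatives that kept all libraries. These were a fit of the 2 groups alone (-3.01, adjusted p = 3.78e-05), a replicate block and 1 fit of all 30 libraries. BMP5 did not pass with RLE factors, library totals, no low-count filter, summed rows or DESeq2. When any 1 of the 4 libraries of this comparison was left out, none of the 5 calls passed, with adjusted p from 0.0501 (BMP10, without WT replicate 4) to 0.23 (BMP7, without ZEB2 shRNA replicate 4), while every log2 fold change kept its sign. The median of the 10 log2 fold changes at day 10 was -0.034 in ZEB2 shRNA and -0.91 in NKX2-5 shRNA cells, beside 0.026 and 0.028 over all genes.

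In NKX2-5 shRNA cells at day 10, 5 of 10 members passed, all lower, against 43.9% of all genes. BMP7 was at 1.01 and 4.9 CPM against 138 and 167 CPM in WT cells (-5.68 ± 0.64, adjusted p = 0.00081) and was the only member past the 8-fold and 1% FDR thresholds, which 7.31% of all genes passed. BMP5 was at 2.69 and 55.8 CPM against 768 and 857 CPM (-4.80 ± 1.12, adjusted p = 0.012). ID3 was at 65 and 63.7 CPM against 129 and 183 CPM (-1.27 ± 0.21, adjusted p = 0.0036), BAMBI at 219 and 140.0 CPM against 336 and 373 CPM (-0.97 ± 0.25, adjusted p = 0.018) and BMP2 at 69.9 and 75 CPM against 118 and 99.9 CPM (-0.58 ± 0.18, adjusted p = 0.036). BMP10 was at 4.52 and 4.09 CPM against 3.01 and 1.85 CPM and did not pass. The 2 NKX2-5 shRNA libraries stood apart in several members. ID1 was at 79.3 and 32.2 CPM, on either side of the WT libraries at 43.7 and 40.0 CPM, with a log2 fold change of 0.43 from both, 0.94 without replicate 2 (adjusted p = 0.0020) and -0.37 without replicate 1 (0.14). NOG was at 4.04 and 0.857 CPM against 6.54 and 7.84 CPM in WT cells, with -1.54 from both (adjusted p = 0.087), -3.04 without replicate 1 (0.00055) and -0.80 without replicate 2 (0.078). BMP5 had -8.22 without replicate 2 and -3.86 without replicate 1, and BMP7 had -7.21 and -4.95. BAMBI had -0.68 without replicate 2 and -1.33 without replicate 1. The other members that passed moved little, with -0.63 and -0.53 for BMP2 and -1.24 and -1.28 for ID3, and BMP10 had 0.87 and 0.72. BMP4 (13.1 and 27.8 CPM, -0.86 ± 0.33, adjusted p = 0.069) had -1.49 without replicate 2 (adjusted p = 0.00039) and -0.41 without replicate 1, and ID2 (406 and 221 CPM, 0.59 ± 0.29, adjusted p = 0.14) had 0.97 (0.0017) and 0.09. Of the 4 fits that left out a library both passed in that without replicate 2 alone, and both also passed in 1 fit of all 30 libraries and BMP4 in DESeq2. The count was 8 without replicate 2 and 2 without either WT library. BMP2 did not pass without replicate 1 (0.054), WT replicate 3 (0.16) or WT replicate 4 (0.059), and BMP5 and BAMBI did not pass without WT replicate 3 (0.057 and 0.065) or WT replicate 4 (0.059 and 0.090). Compared directly, 5 of 10 members passed between NKX2-5 and ZEB2 shRNA cells at day 10, against 21.3% of all genes, with BMP10 (3.60 ± 0.53, adjusted p = 0.0063) higher and BMP4 (-2.21 ± 0.34, adjusted p = 0.0071), BMP7 (-3.62 ± 0.59, adjusted p = 0.0086), ID1 (-1.79 ± 0.39, adjusted p = 0.02) and ID3 (-1.46 ± 0.22, adjusted p = 0.0065) lower in NKX2-5 shRNA cells. BMP4 still passed whichever library was left out. The count was 1 without ZEB2 shRNA replicate 3, 2 without ZEB2 shRNA replicate 4, 8 without NKX2-5 shRNA replicate 1 and 9 without NKX2-5 shRNA replicate 2.

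Markers moved with these day 10 groups too. The 6 cardiomyocyte markers summed to 11590.0 to 14206 CPM in WT, 3282 to 4915 CPM in ZEB2 shRNA and 47.8 to 303 CPM in NKX2-5 shRNA libraries. Markers of endoderm and liver summed to 1485 to 3621 CPM, 6456 to 7824 CPM and 27141 to 38805 CPM, and 6 blood markers (HBE1, HBZ, GATA1, TAL1, RUNX1 and KLF1) to 11.2 to 41.1 CPM, 22.7 to 23 CPM and 905 to 1030.1 CPM, in the same order. Of these 18 markers only GATA1, in ZEB2 shRNA cells, was at 0 in both libraries of a group at day 10. Their part in the levels of the BMP genes was not tested.

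**Figure D4:**
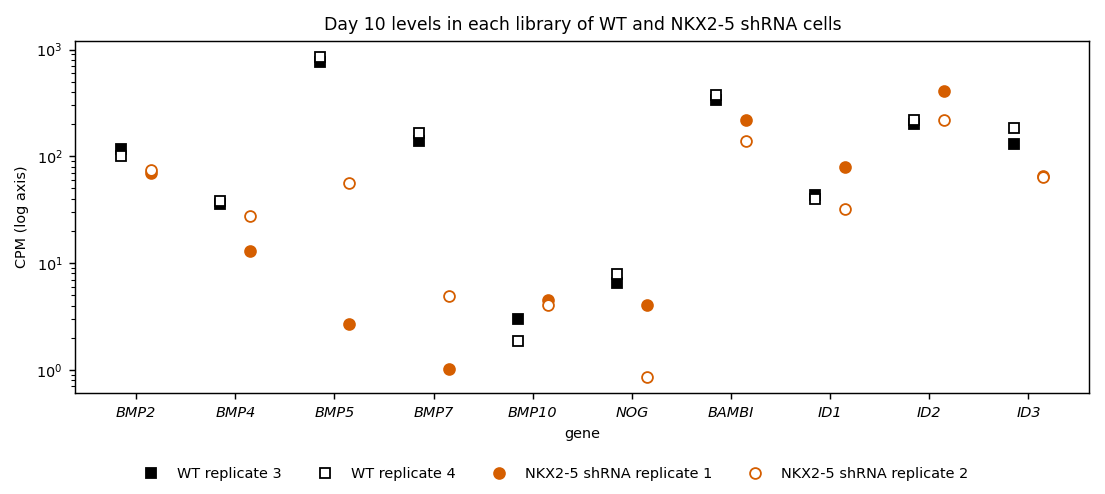
CPM on a log axis of each gene in each WT and NKX2-5 shRNA library at day 10. The open and filled circles of NKX2-5 shRNA cells lie apart for BMP5 (2.69 and 55.8 CPM), BMP7 (1.01 and 4.90 CPM), NOG (4.04 and 0.857 CPM) and ID1 (79.3 and 32.2 CPM), and close together for ID3 and BMP10.

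The other genes of the pathway were read from 5 lists of 43 genes in all, chosen with earlier results of these data known. At day 6, 21 of 39 tested genes passed in NKX2-5 shRNA cells (8 higher and 13 lower), 23 in ZNF503 shRNA cells (14 higher and 9 lower) and 8 in ZEB2 shRNA cells (5 higher and 3 lower), in comparisons where 49.1%, 55.7% and 11% of all genes passed. The median log2 fold change of the 39 was -0.071, 0.27 and 0.14, beside the medians over all genes given above. The ZEB2 shRNA count was 1 to 2 without ZEB2 shRNA replicate 1, ZEB2 shRNA replicate 2 or WT replicate 1. Among the other ligands BMP6 was higher in NKX2-5 shRNA (182 against 20.3 CPM, 3.13 ± 0.29, adjusted p = 2.95e-06) and ZNF503 shRNA cells (277 against 20.3 CPM, 3.74 ± 0.30, adjusted p = 9.94e-07) and BMP3 in ZNF503 shRNA cells (5.83 against 0.222 CPM, 4.87 ± 0.58, adjusted p = 2.53e-05). Among the other inhibitors BMPER, which binds BMPs outside the cell, was lower in both lines (33.4 against 340.2 CPM, -3.35 ± 0.18, adjusted p = 2.77e-08, and 23.5 against 340.2 CPM, -3.86 ± 0.19, adjusted p = 1.49e-08), while FST was higher in ZEB2 shRNA cells (192 against 57.9 CPM, 1.73 ± 0.15, adjusted p = 1.66e-05). Of the 7 receptors BMPR1A was lower in NKX2-5 (-0.71 ± 0.13, adjusted p = 0.00056) and ZNF503 shRNA cells (-0.71 ± 0.13, adjusted p = 0.00053) and BMPR1B higher (0.79 ± 0.30, adjusted p = 0.046 and 2.45 ± 0.30, adjusted p = 3.36e-05). Of the 4 SMAD genes SMAD4 alone passed in any line, higher in NKX2-5 and ZNF503 shRNA cells (0.37 ± 0.11, adjusted p = 0.017 and 0.36 ± 0.11, adjusted p = 0.017). Of the 8 genes listed as other targets HES1 was lower in both (-2.16 ± 0.16, adjusted p = 3.70e-07 and -1.19 ± 0.15, adjusted p = 4.65e-05), and SMAD6, an inhibitory SMAD, was higher in ZEB2 shRNA cells (0.55 ± 0.11, adjusted p = 0.0077). Genes of this list may also answer to other signals, which was not tested.

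At the early days fewer of these genes passed. At day 2, 7 of 31 passed in NKX2-5 shRNA cells, where 26.7% of all genes did, 12 in the ZNF503 shRNA line, where 26.9% did, and 1 in the ZEB2 shRNA line, where 0.49% did. That gene was CHRD, a secreted antagonist (-1.17 ± 0.16, adjusted p = 0.0026), which was also lower in ZNF503 shRNA cells (-1.47 ± 0.16, adjusted p = 1.05e-05) and higher in NKX2-5 shRNA cells (1.20 ± 0.15, adjusted p = 0.00011). Of the 7 other targets tested, 4 were lower in NKX2-5 shRNA cells and 4 in ZNF503 shRNA cells at day 2, among them MSX2 in ZNF503 shRNA cells (1.27 against 6.26 CPM, -2.37 ± 0.22, adjusted p = 1.96e-06) and MSX1 in NKX2-5 shRNA cells (-1.07 ± 0.36, adjusted p = 0.042). At day 0, of 35 tested, ZNF503 shRNA cells had 4 that passed (7.53% of all genes) and the NKX2-5 (15.9%) and ZEB2 shRNA lines (3.93%) 2 each, with HES1 higher in NKX2-5 (1.00 ± 0.15, adjusted p = 0.0014) and ZNF503 shRNA cells (0.67 ± 0.14, adjusted p = 0.019) and GREM1 higher in ZEB2 shRNA cells (1.61 against 0.132 CPM, 3.57 ± 0.60, adjusted p = 0.0064). Without single libraries these counts were 1 to 6 in NKX2-5 shRNA cells, with 6 without NKX2-5 shRNA replicate 1, 0 to 1 in the ZEB2 shRNA line and 0 in the ZNF503 shRNA line.

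At day 10, 28 of 40 genes passed in NKX2-5 shRNA cells, 14 in each direction, against 43.9% of all genes, and 12 in ZEB2 shRNA cells, 9 higher and 3 lower, against 18.2%. In NKX2-5 shRNA cells CHRDL1 (3.03 against 0.0778 CPM, 4.84 ± 0.86, adjusted p = 0.0043), BMP8B (4.36 ± 0.93, adjusted p = 0.0086), BMP8A (3.47 ± 0.54, adjusted p = 0.0024) and NBL1 (3.50 ± 0.47, adjusted p = 0.0014) were higher, and BMPER (-4.02 ± 0.26, adjusted p = 0.00017), MSX2 (-3.12 ± 0.38, adjusted p = 0.001) and SMAD9 (-3.10 ± 0.22, adjusted p = 0.00019) lower. The CHRDL1 level in WT cells lies under the day 10 limit of 3 counts (0.102 to 0.326 CPM). It was not distinguished from 0, so the size of the CHRDL1 change is uncertain. In ZEB2 shRNA cells MSX1, a homeobox target of BMP signaling (34.3 against 2.77 CPM, 3.65 ± 0.34, adjusted p = 0.0022), and GDF7 (10.7 against 1.28 CPM, 3.10 ± 0.49, adjusted p = 0.0077) were higher. The NKX2-5 shRNA count was 15 without WT replicate 3 and 17 without WT replicate 4, and the ZEB2 shRNA count was 1 to 2 without any 1 of its 4 libraries.

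Across the 15 groups the members varied together to different degrees, given here as Pearson r of the mean log2 CPM. The groups share the days and the WT baseline, so these are descriptions. BMP5 and BAMBI were closest, at 0.96, and BMP7 and BMP10 least alike, at 0.035. Over 18481 genes, those most like BMP4 were SPOPL (0.97), DYNC1I1 (0.96) and MOK (0.96), those most like BMP10 were SELE, CD93 and EDNRA (0.97 for each), and those most like ID1 were DCLK3 (0.90), LGR5 (0.88) and HHIPL2 (0.87).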

How the data were processed

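The deposited file, made by the authors, holds raw counts per RefSeq transcript region for stranded, paired-end total RNA libraries. Reads had been aligned to hg19/GRCh37 with TopHat2 2.0.14 and Bowtie2 2.2.1.0, with 2 mismatches and 1 best hit, processed with SAMtools 0.1.19.0 and counted with RSeQC by the authors, per the labels and the study's methods. No normalized value from them was used.

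Of the accessions 96.8% matched a gene symbol, which held 97.1% of the counts, and the row with the largest total stood for a gene. The members and lists were chosen with earlier results of these data known. The columns of WT and ZEB2 shRNA day 10 replicates 1 and 2, 4 in all, were not used. Against replicate 3 of their group, their median rank correlation over blocks of 1000 rows was 0.0079 to 0.013, and that of replicate 4 was 0.98 and 0.99, so their rows could not be tied to genes.

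Counts were fitted with edgeR 4.0.16 (R 4.3.3, limma 3.58.1): TMM factors, filterByExpr, the quasi-likelihood F test and p-values adjusted by Benjamini and Hochberg's method across the 16443 to 17750 genes of a fit, with a prior count of 0.125. The shRNA lines were compared with WT and with each other in 1 fit per day, and days in 1 fit per line. A gene passed at 5% FDR. The thresholds of the study were 2-fold and 10% FDR at day 0, 4-fold and 10% at day 2, and 8-fold and 1% at days 6 and 10. The standard error is the log2 fold change over the square root of F. CPM used 1 TMM normalization of the 30 libraries. The lengths of the counted regions are not given in the sources used here, so no level per length was computed and levels are not compared between genes. Libraries held 9189943 to 90814577 counts (median 32191176). With 2 libraries per group the precision rests on the pooled dispersion. On data simulated for ZNF503 shRNA against WT at day 6 (16177 genes), 88% of genes raised 2-fold, 80% of genes lowered 2-fold and 100% of those raised 4-fold or 8-fold were called. Only genes above a threshold of mean count were changed, so these rates do not cover genes with few counts or the other days. Every gene was drawn at the trended dispersion, so the rates also leave out the spread of single genes around that trend.

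Genes named beside the members are the targeted genes, up to 4 genes per list with the largest change past the thresholds of the study, otherwise up to 2 past 5% FDR, and the 3 genes most like BMP4, BMP10 and ID1. Intervals of count ratios are exact 95% intervals. The alternatives were RLE factors, library totals, no filter, summed rows, DESeq2 1.42.0, a fit of the 2 groups alone, a replicate block, 1 fit of all libraries and leaving out each library.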

Additional observations from a re-analysis of the deposited data

Results flagged for a closer look

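The differences below are those between shRNA lines in which the members passed the thresholds of the study for that day, or in which both lines differed from WT cells at 5% FDR in opposite directions. Each was tested directly between the lines with edgeR's quasi-likelihood test, and adjusted p-values are over all genes.

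At day 0 BMP2 differed by -1.50 ± 0.25, adjusted p = 0.0013 between NKX2-5 and ZEB2 shRNA cells and by 1.95 ± 0.26, adjusted p = 0.00039 between ZEB2 and ZNF503 shRNA cells (log2 ± SE, the line named first minus the second). ID2 differed by 1.15 ± 0.13, adjusted p = 0.00013 between NKX2-5 and ZEB2 shRNA cells and by -1.11 ± 0.13, adjusted p = 0.00021 between ZEB2 and ZNF503 shRNA cells, with opposite directions against WT cells. ID1 differed by 1.40 ± 0.13, adjusted p = 3.60e-05 between ZEB2 and ZNF503 shRNA cells.

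At day 2 BMP2 differed by 2.75 ± 0.15, adjusted p = 8.33e-09 between NKX2-5 and ZNF503 shRNA cells and by 2.32 ± 0.15, adjusted p = 5.86e-08 between ZEB2 and ZNF503 shRNA cells. ID1 differed by 2.12 ± 0.15, adjusted p = 8.90e-08 between ZEB2 and ZNF503 shRNA cells. At day 6 BMP4 differed by -3.00 ± 0.12, adjusted p = 3.55e-09 between NKX2-5 and ZEB2 shRNA cells and by 2.68 ± 0.12, adjusted p = 1.40e-08 between ZEB2 and ZNF503 shRNA cells, being above WT cells in ZEB2 shRNA cells and below them in the other lines. All of these day 0, day 2 and day 6 differences still passed 5% FDR whichever library was left out.

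At day 10 BMP10 differed by 3.60 ± 0.53, adjusted p = 0.0063 and BMP7 by -3.62 ± 0.59, adjusted p = 0.0086 between NKX2-5 and ZEB2 shRNA cells. BMP10 did not pass without either ZEB2 shRNA library (0.064 and 0.080), nor BMP7 without ZEB2 shRNA replicate 3 (0.054). No group had enough libraries to test for a library apart from the rest.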

How the results depend on the processing

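Of 131 log2 fold changes, all 131 kept their direction and their side of 5% FDR with RLE factors, 127 with DESeq2 and 127 without the low-count filter, 124 with library totals, 124 with summed rows, 119 with the 2 groups alone and 100 with 1 fit of all 30 libraries, where 27 no longer passed. Of 524 values without single libraries, 420 kept both, 99 no longer passed, 4 newly passed and 1 turned, ID1 in NKX2-5 shRNA cells at day 10 (-0.37 to 0.94). A library left alone in its group was assumed to vary like the other groups of its fit. The causes were not tested.

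The number of members that passed moved as follows. For NKX2-5 shRNA against WT it was 5 at day 0 without the filter and 5 with DESeq2 (3 in the report), and with 1 fit of all libraries 2 at day 2 and 8 at day 10. For ZEB2 shRNA against WT at day 0 it was 1 with 1 fit. For ZNF503 shRNA against WT it was 1 at day 0 with summed rows and with 1 fit, 4 with the 2 groups alone, and 3 at day 2 with 1 fit. Between lines with 1 fit it was 2 for NKX2-5 against ZEB2 at day 2 (3 with library totals), 3 for NKX2-5 against ZNF503 and 3 for ZEB2 against ZNF503 at day 2, 1 for NKX2-5 against ZNF503 at day 6 and 9 for NKX2-5 against ZEB2 at day 10. It was 8 for NKX2-5 shRNA cells from day 6 to day 10 with 1 fit. Without single libraries the lowest and highest counts against WT at day 0 were 1 and 3 for NKX2-5, 0 and 1 for ZEB2 and 1 and 1 for ZNF503 shRNA cells. At day 10 they were 2 and 8 for NKX2-5 and 0 and 0 for ZEB2 shRNA cells. Between lines they were 3 and 3 for NKX2-5 against ZEB2 at day 2, 3 and 5 for NKX2-5 against ZNF503 at day 2, 0 and 4 for the same lines at day 6, and 1 and 9 for NKX2-5 against ZEB2 at day 10. For NKX2-5 shRNA cells from day 0 to day 2 they were 2 and 3.

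For the genes of the 5 pathway lists, alternatives chosen after seeing the data gave, at day 0 against WT, 5 with library totals for NKX2-5, 1 with summed rows and 1 with 1 fit for ZEB2, and 8 with the 2 groups alone and 1 with 1 fit for ZNF503 shRNA cells. At day 2 they gave 11 with library totals for NKX2-5 and 2 without the filter, with DESeq2 and with 1 fit for ZEB2 shRNA cells. With 1 fit ZEB2 shRNA cells had 4 at day 6 and 20 at day 10. Without single libraries the counts were 1 to 6, 0 to 1 and 0 to 0 at day 0 for NKX2-5, ZEB2 and ZNF503, 1 to 6 at day 6 for ZEB2, and 15 to 32 and 1 to 2 at day 10 for NKX2-5 and ZEB2 shRNA cells. Alternatives of the comparisons between lines were also chosen after seeing the data.

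The replicate numbers did not pair the libraries, with correlations of same-numbered deviations from -0.083 to 0.056 over 19 pairs. With the replicate block 105 of 108 values kept direction and side, 2 no longer passed and 1 newly passed. The block left 1 member for ZNF503 shRNA against WT at day 0, and of the pathway genes 1 for ZEB2 and 2 for ZNF503 at day 0, 2 for ZEB2 at day 2 and 5 for ZEB2 at day 6. No paired analysis was possible for comparisons of NKX2-5 shRNA at day 10 with the other lines, nor for WT and ZEB2 shRNA cells from day 6 to day 10, because these groups share no replicate number. Depth limits BMP10, NOG and BMP5 where they had few counts, and levels under 3 counts were not distinguished from 0.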

Other observations

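Further marker lists, as summed CPM of the 2 libraries of a group, were read at day 6. The 4 endothelial markers (PECAM1, CDH5, KDR and TEK) summed to 457 to 537 CPM in WT, 415 to 433 CPM in ZEB2 shRNA, 192 to 193 CPM in NKX2-5 shRNA and 120.3 to 158 CPM in ZNF503 shRNA libraries at day 6. All 4 were above 1 CPM in each group. Between NKX2-5 shRNA and WT cells 2 of the 4 passed 5% FDR, near the 49.1% of all genes that passed. The 4 smooth muscle markers (ACTA2, TAGLN, MYH11 and CNN1) summed to 799.7 to 1113 CPM in WT, 538 to 595 CPM in ZEB2 shRNA, 653 to 846 CPM in ZNF503 shRNA and 155 to 220.5 CPM in NKX2-5 shRNA libraries at day 6. The 4 neural markers (PAX6, SOX1, NES and TUBB3) summed to 305 to 331 CPM in WT, 239 to 240.1 CPM in ZEB2 shRNA, 271 to 347 CPM in ZNF503 shRNA and 152 to 178 CPM in NKX2-5 shRNA libraries at day 6, with 2 of the 4 above 1 CPM in each group. Of these 12 markers only SOX1, in NKX2-5 shRNA cells, was at 0 in both libraries of a group. Their part in the levels of the BMP genes was not tested.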
